A study of Mus musculus with 45 samples.

Results

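The genes that copy DNA and the genes that carry a cell through mitosis were followed in the RNA of primary fibroblasts from mouse embryos (MEFs), the cells of connective tissue, in 45 libraries. The set held 41 of the 37991 genes in the count table, chosen by name, with 20 replication genes and 21 mitosis genes. Each name matched 1 row of the table. All 41 passed the filter on low counts in every fit.

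The cells came from C57BL/6 embryos and were either wild type (WT) or deficient in p53 (p53KO), the transcription factor that arrests or kills damaged cells. How the p53 allele was inactivated is not given in the sources used here. Every culture was grown in 10% bovine calf serum and then held overnight in 0.5% serum, so the 0 h cells of both genotypes were serum-starved. The cells then received IL-1b at 10 ng/ml, TNF at 10 ng/ml or LPS at 100 ng/ml for 0.5, 1, 3 or 8 h, and each stimulus had its own 0 h library. The WT libraries came from 1 line of littermate cells, with 1 library in each of 15 groups. The p53KO libraries came from lines KO-1 and KO-2, with 1 library each in the same 15 groups, giving 30 groups in all. No untreated library was analysed after 0 h, so an effect of the stimulus cannot be told apart from one of time in culture. With 1 WT line, the genotype cannot be told apart from that line.

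In a dividing cell, replication origins are licensed when Cdc6 and Cdt1 load the Mcm2 to Mcm7 helicase ring onto DNA, and cyclin E and its kinase then help fire them. Most genes of that machinery are targets of the E2F transcription factors, which the retinoblastoma family holds in check in resting cells. Mitosis genes are switched on later, in G2, and many carry a cell cycle homology region (CHR) in the promoter. The DREAM complex binds it to silence these genes in resting cells, and MuvB with B-Myb and Foxm1 uses it to activate them. p53 acts on both groups indirectly, through p21 (gene Cdkn1a) and DREAM. In bulk RNA, fewer cells in a phase of the cycle and less RNA per cell cannot be told apart.

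The gene counts of a library totalled 5619870 to 15355994, with a median of 9347770. Values are in CPM, gene counts brought to 1 library size with TMM scaling, and changes are log2 differences on which 1 stands for a doubling. Trp53, the gene of p53, lay at 158 to 293 CPM (median 198) in the 15 WT libraries. The KO-1 libraries held 50.9 to 86.5 CPM (median 65.4) and the KO-2 libraries 53.9 to 83.1 CPM (median 61.8), so the groups did not overlap and residual reads remained. Summed fibroblast markers were at 34710 to 45210 CPM in all libraries, while the globin genes Hba-a1, Hbb-bs and Hbb-bt were at 0. Summed macrophage markers were at 492 to 507 CPM at 0 h and 668 to 706 CPM at 3 h in WT, and at 374 to 469 CPM and 441 to 575 CPM in p53KO. Of the 12 markers 7 rose at 3 h in WT and 5 in p53KO. Summed epithelial markers went from 28.6 to 31.8 CPM at 0 h to 45.1 to 59.2 CPM at 3 h in p53KO, with 4 of 6 tested higher, and from 8.05 to 9.40 CPM to 11.1 to 12.6 CPM in WT, with 1 higher. Epcam and Cdh1 never passed 0.743 and 1.65 CPM, so the other markers of that list made up most of these sums. Summed neural markers went from 229 to 285 CPM to 436 to 523 CPM in p53KO and from 170 to 189 CPM to 337 to 342 CPM in WT, with 1 of 5 higher and 2 lower in each. Over all genes at 3 h, 22.2% rose and 20.7% fell in WT, and 30.4% rose and 32.2% fell in p53KO. The part of these markers in the results was not tested. Levels relative to the mean of the line followed transcript length most in the KO-2 IL-1b 0.5 h library (Spearman rho of -0.603 across 9561 genes) and the WT IL-1b 3 h library (-0.493). Removing a trend on length and GC content moved no count of members averaged over the stimuli at 3 h by over 1.5 times. The 0 h libraries of the IL-1b and LPS series were nearly as alike as counting noise allows, with chi-squared per degree of freedom of 1.54 in WT, 1.35 in KO-1 and 1.71 in KO-2. The 0 h pairs with TNF gave 2.71 to 3.79, so the IL-1b and LPS 0 h libraries may not be separate cultures.

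The promoters of the 2 classes differed in sequence. RefSeq promoters on build GRCm38.p6, from 250 bases before to 50 after the gene start, were matched for 34 of the 41 genes, 17 in each class. They were searched on both strands for the CHR (TTTGAA or TTCGAA), the CCAAT box and an E2F site (TTTCCCGC, TTTCGCGC, TTTGCCGC or TTTGGCGC). An E2F site was found in 8 of 17 replication promoters and 1 of 17 mitosis promoters, that of Cdk1, against 2.6% of all 27025 genes. A CHR was found in 13 of 17 mitosis promoters and 2 of 17 replication promoters, against 21.7% of all genes. A CCAAT box was found in 15 mitosis and 11 replication promoters, against 41.1% of all genes. All 13 mitosis promoters with a CHR also held a CCAAT box, a pair present in 9.65% of all genes. A match is a stretch of letters and not a proven binding site. Promoters were not matched for Mcm4, Ccne2, Ccnd1, Ccna2, Cdc25c, Aurkb and Tpx2.

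Below are 3 promoters of each class, 5′ to 3′ on the strand of the gene, with E2F sites, CHR and CCAAT boxes in capitals. They show the E2F letters of replication genes that differed between genotypes and the CHR and CCAAT letters of mitosis genes that fell at 3 h. Positions count from the gene start, with negative numbers upstream. The Mcm6 promoter (chr1:128359656-128359955, minus strand) held E2F letters at -110, -106 and -47 and CCAAT boxes at -57 and -14. The Cdc6 promoter (chr11:98907901-98908200, plus strand) held an E2F site at -138. The Mcm5 promoter (chr8:75109259-75109558, plus strand) held E2F letters at -153 and -149 and CCAAT boxes at -77, -22 and 7. The Bub1b promoter (chr2:118597961-118598260, plus strand) held a CHR at -188 and 41 and a CCAAT box at -113. The Ccnb2 promoter (chr9:70421505-70421804, minus strand) held CCAAT boxes at -87, -54 and -21, evenly spaced, and a CHR at -167 and 5. The Cenpf promoter (chr1:189688037-189688336, minus strand) held CCAAT boxes at -132 and -71 and a CHR at 3.
Mcm6: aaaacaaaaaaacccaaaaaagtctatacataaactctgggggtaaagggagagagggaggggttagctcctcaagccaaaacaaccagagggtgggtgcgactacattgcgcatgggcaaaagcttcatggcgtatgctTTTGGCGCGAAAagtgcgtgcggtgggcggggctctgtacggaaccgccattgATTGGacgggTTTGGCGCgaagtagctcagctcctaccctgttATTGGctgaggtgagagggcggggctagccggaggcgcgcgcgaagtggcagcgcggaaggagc
Cdc6: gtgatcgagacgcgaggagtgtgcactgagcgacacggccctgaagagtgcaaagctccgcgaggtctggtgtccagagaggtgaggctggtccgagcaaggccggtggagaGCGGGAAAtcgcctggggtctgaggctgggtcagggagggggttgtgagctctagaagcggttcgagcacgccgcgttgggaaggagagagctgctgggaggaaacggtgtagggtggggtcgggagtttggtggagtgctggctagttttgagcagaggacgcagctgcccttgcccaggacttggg
Mcm5: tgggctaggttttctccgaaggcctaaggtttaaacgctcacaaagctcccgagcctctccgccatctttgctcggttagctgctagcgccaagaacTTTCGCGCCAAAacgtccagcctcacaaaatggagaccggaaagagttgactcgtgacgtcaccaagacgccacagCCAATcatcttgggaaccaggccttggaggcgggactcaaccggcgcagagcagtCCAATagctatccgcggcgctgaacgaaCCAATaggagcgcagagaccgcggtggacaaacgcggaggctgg
Bub1b: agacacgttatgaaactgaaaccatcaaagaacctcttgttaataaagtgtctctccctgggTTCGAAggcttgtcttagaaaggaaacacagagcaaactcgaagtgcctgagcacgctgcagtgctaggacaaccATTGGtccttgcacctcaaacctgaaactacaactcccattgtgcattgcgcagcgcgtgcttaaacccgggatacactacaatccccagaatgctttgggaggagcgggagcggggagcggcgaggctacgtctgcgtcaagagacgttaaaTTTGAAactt
Ccnb2: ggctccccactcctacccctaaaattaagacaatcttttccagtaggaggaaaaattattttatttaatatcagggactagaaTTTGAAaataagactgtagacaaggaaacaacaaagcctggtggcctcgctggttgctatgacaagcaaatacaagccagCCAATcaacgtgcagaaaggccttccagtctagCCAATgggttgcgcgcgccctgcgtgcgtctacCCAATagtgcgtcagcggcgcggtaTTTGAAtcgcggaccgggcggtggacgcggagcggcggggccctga
Cenpf: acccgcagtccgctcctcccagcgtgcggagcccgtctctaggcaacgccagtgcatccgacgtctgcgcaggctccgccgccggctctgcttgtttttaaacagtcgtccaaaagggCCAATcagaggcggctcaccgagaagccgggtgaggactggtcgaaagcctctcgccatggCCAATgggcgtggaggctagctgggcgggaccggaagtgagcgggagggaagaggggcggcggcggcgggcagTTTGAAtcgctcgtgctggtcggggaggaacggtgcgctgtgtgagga

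The counts themselves were made on build mm9, where Mcm6 lies on chromosome 1 at 130228168 to 130256233, Cdc6 on chromosome 11 at 98769115 to 98785254 and Pcna on chromosome 2 at 132074898 to 132079050. Among the mitosis genes, Bub1b lies on chromosome 2 at 118423947 to 118467328, Ccnb2 on chromosome 9 at 70255496 to 70269361 and Cenpf on chromosome 1 at 191464478 to 191511965.

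Both classes were expressed in the starved cells. Per kilobase of transcript at 0 h, the highest level was that of Rrm2, the small subunit of ribonucleotide reductase, at 122 CPM per kb in WT, 91.8 in KO-1 and 86.8 in KO-2. Next in the order of the mean of the 3 lines were Top2a, which untangles DNA, at 69.3, 87.3 and 73.1 CPM per kb, and Pcna, the sliding clamp of the polymerases, at 88.7, 69.0 and 71.7. The lowest levels were those of Cdc6 (6.76, 6.25 and 5.92 CPM per kb) and of Cenpf, a kinetochore protein (4.08, 6.11 and 4.75). The classes were interleaved over this range. Mcm2, Mcm3, Mcm4, Mcm6 and Mcm7 lay close together, at 41.4 to 48.5 CPM per kb in the 3 lines, in an order that differed from line to line. Mcm5 lay lower, at 38.3 CPM per kb in WT, 34.6 in KO-1 and 34.8 in KO-2.

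Summed over all 15 libraries of a line, members of both classes differed between the p53KO lines and the WT line. As a set, the members were called no more often than all genes were, so the calls do not set them apart. Of the replication genes, 4 were higher in p53KO and 3 lower, and of the mitosis genes 7 were higher and 1 lower, where 21.1% of all 12918 genes were higher and 19.2% lower. Ccnd1, the cyclin that starts the G1 programme, lay at 256 to 399 CPM (median 319) in WT, while KO-1 held 158 to 252 CPM (median 187) and KO-2 held 184 to 265 CPM (median 214). Only the top of KO-2 reached the bottom of WT, and the p53KO minus WT difference was -0.65 ± 0.0672 (SE, adjusted p = 0.000321, edgeR on 3 line sums). Ccne2, a cyclin E, was lower by the same measure at -0.61 (adjusted p = 0.00167), with 38.6 CPM in the WT line sum, 27.3 in KO-1 and 23.3 in KO-2. Rrm2 was lower at -0.37 (adjusted p = 0.00637), with 261, 214 and 190 CPM in the line sums.

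On the other side stood Rfc4, a subunit of the clamp loader, at 20.8 CPM in the WT line sum, 28.9 in KO-1 and 27.3 in KO-2, a difference of 0.43 (adjusted p = 0.00170). Cdt1 (0.30), Pola1 (0.20) and Mcm2 (0.19) were also higher. The mitosis genes that were higher were Cenpf (0.36, adjusted p = 0.00188), Mki67 (0.33, adjusted p = 0.00327), the antigen Ki-67 that marks cycling cells, Bub1b (0.27), Cdc25c (0.26), Top2a (0.21), Cenpe (0.19) and Ttk (0.19). Birc5, the survivin gene, was lower at -0.31 (adjusted p = 0.00626), with 80.9 CPM in the WT line sum, 67.9 in KO-1 and 62.7 in KO-2. This test had 1 residual degree of freedom. With the 0 h libraries alone, replication genes were higher in 1 case and lower in 5, and mitosis genes higher in 1 and lower in 3, where 14.0% of all genes were higher and 11.6% lower. The higher levels of Cenpf (0.41) and Rfc4 (0.37) were called at 0 h, and those of Mki67 (0.38), Cdc25c (0.26), Cenpe (0.25) and Top2a (0.21) were of like size without a call. Those of Cdt1 (0.10), Pola1 (0.05) and Mcm2 (0.01) were smaller at 0 h. At 0 h Mki67 lay at 17.3 CPM per kb in WT, 27.15 in KO-1 and 18.1 in KO-2, so its difference came mainly from KO-1. The same held for Cenpe (11.2, 14.95 and 11.8) and Top2a (69.3, 87.3 and 73.1), but not for Cdc25c (7.30, 8.52 and 8.91). Pcna (-0.33), Rrm1 (-0.26), Cdc20 (-0.25) and Cdk1 (-0.24) were called lower at 0 h and not in the line sums, beside Ccnd1, Ccne2, Rrm2 and Birc5.

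The first hour left both classes nearly where they were in p53KO. At 0.5 h, with the 3 stimuli averaged, edgeR called 0 of 41 genes and 1 had an unadjusted p under 0.05, where 3.34% of all genes were called. At 1 h Pcna rose by 0.30 (adjusted p = 4.09e-05), while Cdc6, which loads the helicase, fell by 0.23 (adjusted p = 0.0134). Of the mitosis genes, Cenpf fell by 0.31 (adjusted p = 0.00787) and Plk1, the polo kinase, by 0.15 (adjusted p = 0.0400). At 1 h Cenpf changed by -0.73 to -0.50 in the KO-1 series and by -0.18 to 0.15 in the KO-2 series. Over all genes 9.86% rose and 9.69% fell at that time. The fall of a replication gene was not called without the KO-1 IL-1b 0 h or the KO-2 LPS 1 h library, and the 2 mitosis calls became 0 without the KO-1 TNF 0 h library and 1 without any of 7 other libraries. With the line as a block, 3 replication genes and 1 mitosis gene rose. By stimulus, the 1 h calls were Pcna and Cdc6 with IL-1b, Pcna with LPS and none with TNF, where 1 replication and 2 mitosis genes had an unadjusted p under 0.05. Both Pcna calls were lost without any 1 of the 4 libraries of their comparison, and that of Cdc6 without either KO-1 library or the KO-2 1 h library. The share of all genes called at 1 h was 5.94% with IL-1b, 5.85% with TNF and 5.31% with LPS. At 0.5 h no member was called with any stimulus, against 7.39%, 0.751% and 0.527% of all genes in the same order, with 3 members at an unadjusted p under 0.05 in the IL-1b series and 0 in the others.

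At 3 h the mitosis genes fell together in p53KO. Of 21, 18 were lower and 0 higher than at 0 h, with a median change of -0.39, while 32.2% of all 13851 genes fell, 30.4% rose and the median over all genes was -0.02. Of the 20 replication genes, 8 fell and 3 rose, with a median of -0.09. All 6 p53KO series lay below their own 0 h library for 16 mitosis genes and for 6 replication genes, as did 28% of all genes.

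The strongest call was that of Bub1b, the checkpoint kinase BubR1 that delays anaphase. In the 6 p53KO libraries it lay at 98.2 to 115 CPM (median 104) at 0 h and at 57.4 to 71.9 CPM (median 62.8) at 3 h. No 3 h library reached a 0 h library, and the change was -0.74 ± 0.0495 (SE, adjusted p = 1.78e-12, edgeR). Cenpf went from 51.7 to 73.9 CPM (median 58.0) to 28.1 to 44.1 CPM (median 33.5), again without overlap, a fall of 0.82 (adjusted p = 8.58e-09). Plk1, which drives mitotic entry and spindle assembly, went from 119 to 129 CPM (median 127) to 84.6 to 101 CPM (median 89.1). Its change was -0.47 (adjusted p = 1.60e-08), and the ranges stood apart. Ccnb2, a cyclin that activates Cdk1, went from 61.8 to 68.8 CPM (median 65.6) to 45.3 to 50.8 CPM (median 47.0), a fall of 0.46 (adjusted p = 3.45e-08). Kif11, the motor that pushes spindle poles apart, went from 99.2 to 115 CPM (median 107) to 72.0 to 84.4 CPM (median 80.7), a fall of 0.43 (adjusted p = 3.58e-07).

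The falls ran across the roles of mitosis. Among checkpoint genes, Ttk fell by 0.60 and Bub1 by 0.36. Among kinetochore and motor genes, Cenpe, which attaches chromosomes to microtubules, fell by 0.57, and Kif23, a motor of cytokinesis, by 0.16. Among kinases and their switches, Aurkb fell by 0.44, Aurka by 0.37 and its activator Tpx2 by 0.37, and Cdc25c, the phosphatase that activates Cdk1, by 0.65. Cdc25c went from 21.7 to 25.0 CPM to 13.7 to 15.9 CPM. Ccna2 fell by 0.39, Cdc20, the activator of the anaphase-promoting complex, by 0.27, and Ccnb1 by 0.17. Mki67 fell by 0.48 and Top2a by 0.28. The lines differed for Mki67. With IL-1b, TNF and LPS it changed by -0.91, -0.63 and -0.80 in KO-1 and by -0.30, 0.12 and -0.19 in KO-2. The 3 members that were not called were Cdk1 itself (0.08, adjusted p = 0.253), the checkpoint protein Mad2l1 (-0.05, adjusted p = 0.614) and Birc5 (-0.04, adjusted p = 0.686).

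The replication genes did not move as one at 3 h. Mcm2, a helicase subunit, lay at 140 to 156 CPM (median 148) at 0 h in p53KO and at 101 to 129 CPM (median 114) at 3 h. The ranges did not meet, and the change was -0.37 ± 0.041 (SE, adjusted p = 1.97e-08, edgeR). E2f1, the activator of the replication programme, went from 39.5 to 46.7 CPM (median 41.5) to 27.0 to 34.6 CPM (median 31.1), a fall of 0.45 (adjusted p = 1.12e-07). The other falls were those of Rfc4 (-0.34), Ccne1 (-0.29), the primase and polymerase genes Prim1 (-0.24) and Pola1 (-0.24), Mcm7 (-0.17) and Uhrf1 (-0.15), which couples replication to DNA methylation.

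Against that direction, Pcna rose from 101 to 114 CPM (median 106) to 118 to 143 CPM (median 134), with every 3 h library above every 0 h library. The change was 0.33 ± 0.0478 (SE, adjusted p = 1.79e-06). Ccne2 rose from 18.8 to 23.9 CPM (median 21.0) to 27.0 to 39.0 CPM (median 30.2), a change of 0.59 (adjusted p = 3.26e-05), also without overlap. Tyms, which makes thymidylate for DNA, rose by 0.30 (adjusted p = 0.000265), from 47.4 to 57.2 CPM (median 54.2) to 51.7 to 74.8 CPM (median 67.5), ranges that met. The helicase subunits Mcm3, Mcm4, Mcm5 and Mcm6 (-0.09 to -0.07), the loaders Cdc6 (-0.01) and Cdt1 (-0.03), Rrm1 (0.01), Rrm2 (0.05) and Ccnd1 (-0.13) did not pass the test.

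**Figure D1:**
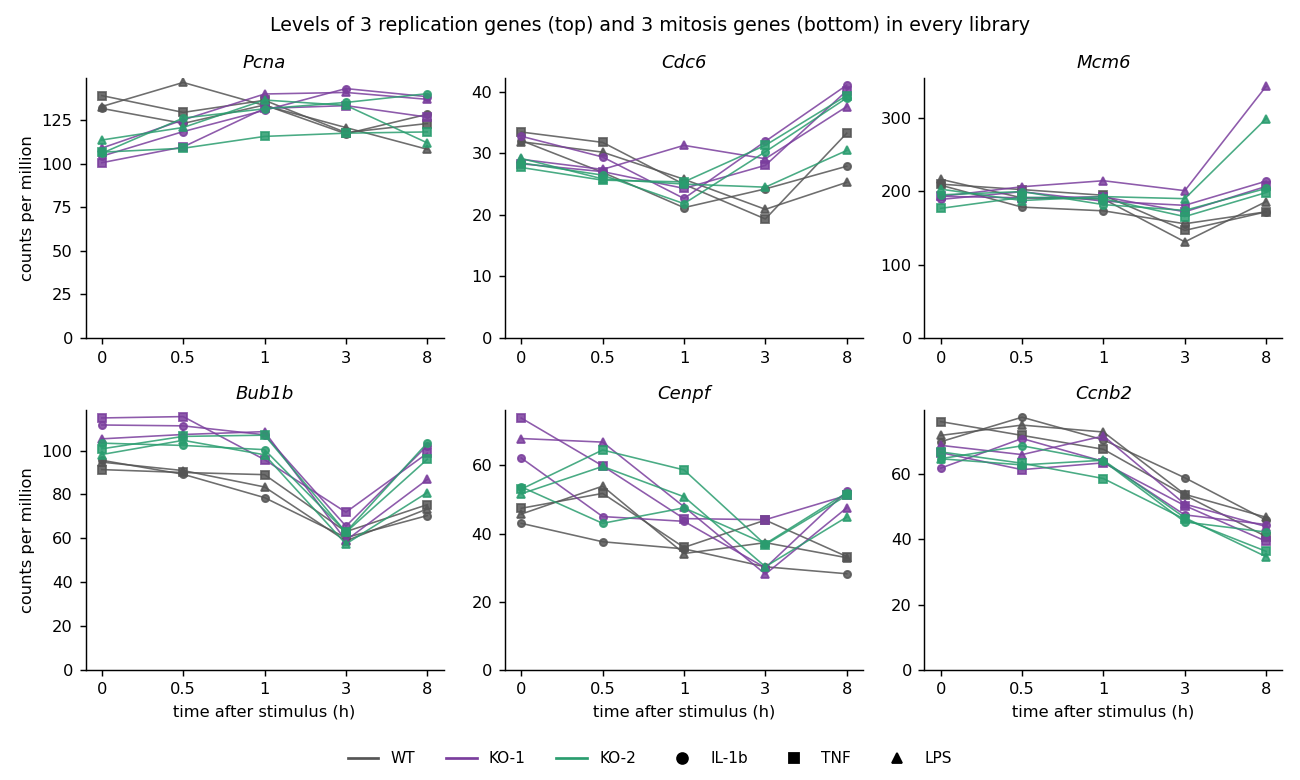
Level in CPM (y axes, from 0) of Pcna, Cdc6 and Mcm6 (top row) and Bub1b, Cenpf and Ccnb2 (bottom row) against time after the stimulus in hours (evenly spaced). Each point is 1 of 45 libraries, coloured by line and shaped by stimulus. Bub1b dropped at 3 h in all 3 lines, to 57.4 to 71.9 CPM in p53KO, and Mcm6 in the LPS series of the p53KO lines reached 299 and 343 CPM at 8 h.

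At 8 h the median of the replication genes lay above 0 h in p53KO and that of the mitosis genes below. The classes were already apart at 3 h. Of the replication genes, 11 were above 0 h and 2 below, with a median of 0.14, and of the mitosis genes 0 were above and 11 below, with a median of -0.16. Over all genes 25.3% rose and 26.7% fell, with a median of -0.01. The share of counts in mitochondrial genes was 0.598 to 0.706% at 0 h in p53KO, 0.411 to 0.702% at 3 h and 0.219 to 0.552% at 8 h, and its part in the result was not tested. In WT it was 0.61 to 0.646% at 0 h and 0.375 to 0.924% at 8 h. The 3 h and 8 h values share their 0 h libraries.

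Mcm6 went from 176 to 203 CPM (median 193) at 0 h to 198 to 343 CPM (median 210) at 8 h, a change of 0.32 ± 0.0415 (SE, adjusted p = 6.01e-07, edgeR), with a narrow overlap. By stimulus, Mcm6 was called with LPS alone, with a rise of 0.70 (adjusted p = 1.69e-08, edgeR). It changed by 0.12 with IL-1b (adjusted p = 0.234) and by 0.13 with TNF (adjusted p = 0.184). Cdt1 went from 38.7 to 50.4 CPM (median 44.9) to 49.0 to 62.4 CPM (median 57.6), a change of 0.35 (adjusted p = 4.32e-06). Cdc6 went from 27.7 to 32.8 CPM (median 28.7) to 30.5 to 41.1 CPM (median 39.2), a change of 0.37 (adjusted p = 2.15e-05). Both loaders overlapped their 0 h range only at its top. Ccne2 (0.47), Pcna (0.27), Tyms (0.26), Uhrf1 (0.25), Ccnd1 (0.23), Ccne1 (0.17), Mcm3 (0.16) and Mcm5 (0.12) also rose. Ccnd1 lost its call without the TNF or the LPS series, Tyms without the IL-1b series, and without the IL-1b series 7 replication genes were called higher.

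Rfc4 and Pola1, the catalytic subunit of polymerase alpha, stayed low. Rfc4 went from 27.6 to 31.7 CPM (median 30.3) at 0 h to 21.6 to 25.9 CPM (median 23.9) at 3 h and 18.5 to 26.2 CPM (median 22.9) at 8 h, with all 3 h and 8 h libraries below all 0 h libraries. Its 8 h change was -0.41 (adjusted p = 5.30e-05). Pola1 was lower by 0.35 (adjusted p = 7.09e-05), from 48.7 to 62.1 CPM (median 55.0) at 0 h to 35.2 to 50.1 CPM (median 42.8) at 8 h. Rfc4 overlaps Eif4a2, a translation factor gene on the opposite strand, with a median of 224 counts against 1426. Since the strand setting of the counting is not given, reads of one could be counted for the other. The same holds for Mcm7 with Cops6, Ccne2 with Ints8, Ccna2 with Exosc9 and Cdc20 with Elovl1.

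Ccnb2 stood out among the mitosis genes at 8 h. It went on falling, to 34.6 to 44.5 CPM (median 40.8) against 61.8 to 68.8 CPM at 0 h, a change of -0.71 ± 0.0521 (SE, adjusted p = 2.52e-11, edgeR). Kif11 was lower by 0.36 (adjusted p = 8.56e-06), at 73.7 to 92.9 CPM (median 84.2), and Cdc25c by 0.38 (adjusted p = 0.000133), at 13.3 to 20.1 CPM (median 17.8). All libraries of these genes at 8 h lay below all at 0 h. Bub1 (-0.29), Cenpf (-0.28), Ccna2 (-0.21), Ccnb1 (-0.20), Birc5 (-0.20), Bub1b (-0.16), Kif23 (-0.16) and Tpx2 (-0.13) were lower by less. Leaving out the LPS series left 5 of these 11 calls, and those of Cenpf and Bub1b were among the lost ones. The call of Cenpf was also lost without the KO-1 TNF 0 h library.

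Between 3 h and 8 h most of the fallen mitosis genes came back. Of 21, 13 rose and 1, Ccnb2 (-0.25), fell, and of the replication genes 12 rose and 0 fell, where 28.3% of all genes rose and 28.0% fell. Ttk rose by 0.67, Bub1b by 0.58, Cenpf by 0.55, Cenpe by 0.46 and Plk1 by 0.38. The replication genes that rose were all 6 helicase subunits (0.18 to 0.44), Cdc6, Cdt1, Ccne1, E2f1, Uhrf1 and Ccnd1. Pcna, Ccne2 and Tyms, which had risen by 3 h, changed by -0.13 to -0.03 and were not called. The falls became 2 with the line as a block and without the KO-1 IL-1b or LPS 8 h or the KO-2 TNF 3 h library, and 1 replication gene fell without the KO-1 LPS 8 h library.

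**Figure D2:**
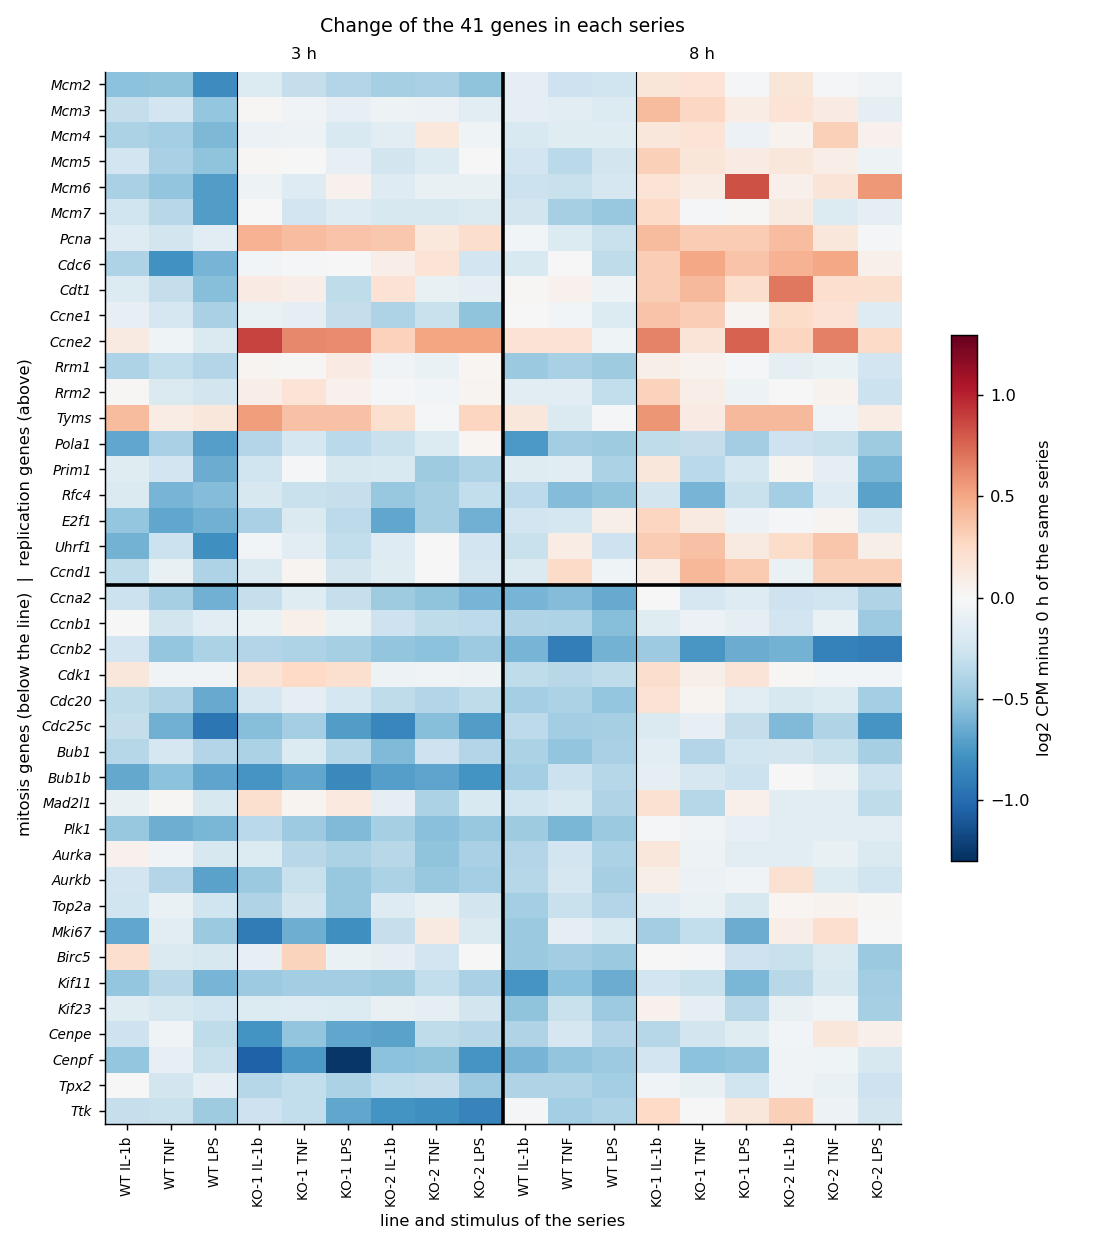
Log2 CPM minus that of the 0 h library of the same series, for the 41 genes (rows, replication above mitosis) in the 9 series at 3 h and at 8 h (columns, by line and stimulus), on a colour scale from lower to higher. In p53KO at 3 h, 16 of 21 mitosis genes lie below 0 h in all 6 series, and in WT at 3 h 17 of 20 replication genes lie below 0 h in all 3 series.

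The responses to each stimulus were counted on their own in p53KO. At 3 h, 16 mitosis genes fell with IL-1b, 12 with TNF and 16 with LPS, and 0 rose with any. Replication genes rose and fell in 3 and 5 cases with IL-1b, 2 and 4 with TNF, and 3 and 4 with LPS. Over all genes 21.0% rose and 21.7% fell with IL-1b, 18.4% and 17.6% with TNF, and 21.9% and 22.1% with LPS. At 8 h, replication genes rose in 7 cases with IL-1b, 7 with TNF and 3 with LPS, and fell in 1, 1 and 3. Mitosis genes fell in 3 cases with IL-1b, 2 with TNF and 12 with LPS. Over all genes at 8 h 12.5% rose and 11.8% fell with IL-1b, 14.5% and 14.1% with TNF, and 17.0% and 17.2% with LPS. These counts rested on single libraries. The 12 LPS calls became 5 without the KO-1 LPS 0 h library and 2 without the KO-2 LPS 8 h library. The 7 rises with IL-1b became 3 without the KO-1 8 h library and 4 without the KO-2 0 h library, and the 7 with TNF became 1 without the KO-1 8 h library and 3 or 4 without the KO-1 or KO-2 0 h library. The 3 rises and 3 falls with LPS became 1 and 1 without the KO-1 0 h library and 5 and 0 without the KO-2 8 h library. The mitosis falls became 1 without the KO-2 8 h library with IL-1b, and 1 without the KO-1 0 h library or either 8 h library with TNF. The 1 replication fall became 0 without any library of that comparison with IL-1b, and with TNF 0 without a KO-1 library and 2 without the KO-2 0 h library. At 3 h, rises became 1 without the KO-1 0 h or 3 h library with IL-1b and without the KO-1 3 h or KO-2 0 h library with LPS, and rises with TNF became 0 without the KO-1 3 h library and 1 without either 0 h library. Falls of replication genes became 3 without either 0 h library and 1 without the KO-2 3 h library with IL-1b, and with TNF 2 without the KO-1 0 h library and 1 without the KO-2 0 h or 3 h library. With the line as a block, 9 replication genes fell with LPS at 3 h. In that fit 2 replication genes fell at 8 h with IL-1b and with TNF, and 4 mitosis genes fell with TNF.

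The stimuli were then compared directly, over the 4 times and at 8 h. Over the 4 times LPS differed from IL-1b for Mcm6 (adjusted p = 0.000426) and Cdt1 (adjusted p = 0.0441), where 6.91% of all genes were called, and from TNF for Mcm6 alone (adjusted p = 0.000442), where 5.14% were. IL-1b and TNF differed for 0 members by edgeR, with 1 at an unadjusted p under 0.05, against 1.42% of all genes. The call of Cdt1 was lost when any of 14 of the 20 libraries of that comparison was left out. With the line as a block, LPS differed from IL-1b for 5 replication and 2 mitosis genes, and IL-1b from TNF for 1 replication gene. At 8 h the LPS minus IL-1b difference was negative for 17 of 20 replication and 20 of 21 mitosis genes, with medians of -0.20 and -0.18, against 7522 of 13851 genes and a median of -0.02. Against TNF it was negative for 16 and 17, with medians of -0.12 and -0.08, against 7193 genes and a median of -0.01. None of the negative differences was called by edgeR, although 7 replication and 2 mitosis genes had one with an unadjusted p under 0.05 against IL-1b.

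Mcm6 went the other way. At 8 h it lay at 343 CPM in KO-1 and 299 CPM in KO-2 after LPS, against 213 and 204 CPM after IL-1b and 206 and 198 CPM after TNF. Both LPS libraries stood above the other 4. In WT it lay at 186 CPM after LPS and 172 CPM after IL-1b and TNF alike, below every 0 h library of WT (208 to 216 CPM). The LPS minus IL-1b difference in p53KO at 8 h was 0.58 ± 0.101 (SE, adjusted p = 0.000378) and the LPS minus TNF difference 0.57 ± 0.1018 (SE, adjusted p = 0.000587), where 3.92% and 4.40% of all genes were called. At 3 h the differences were 0.09 and 0.11 and were not called (adjusted p of 0.9999 and 0.919). The other helicase subunits did not share it, since none of Mcm2, Mcm3, Mcm4, Mcm5 or Mcm7 was called between stimuli.

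**Figure D3:**
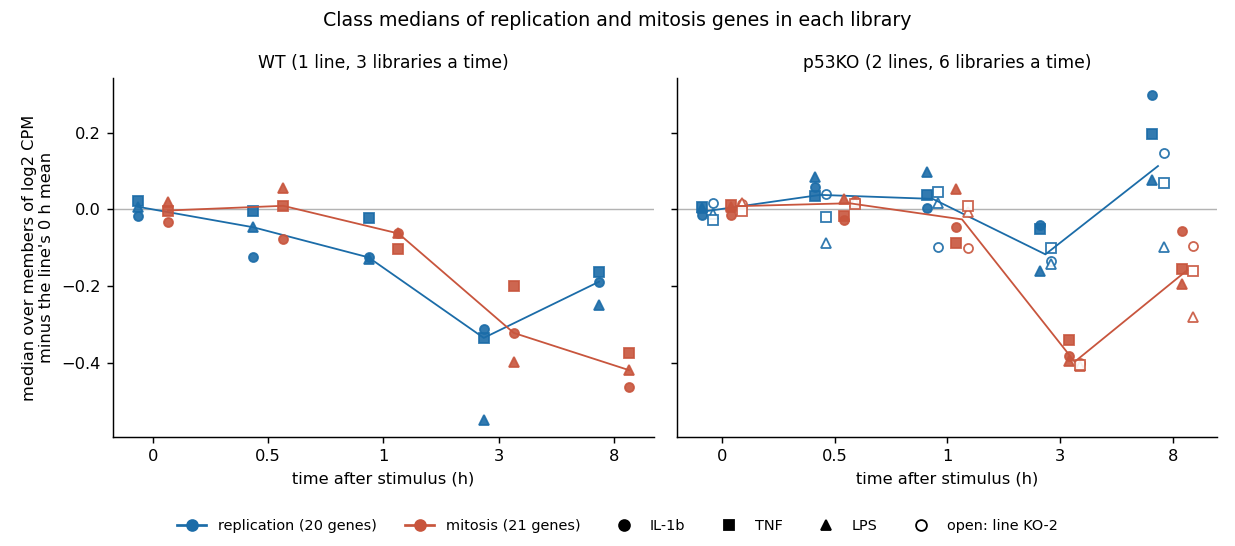
Median over the 20 replication genes and over the 21 mitosis genes of log2 CPM minus the 0 h mean of the same line (y axis) in each library against time after the stimulus in hours (evenly spaced), with WT in one panel and p53KO in the other and stimuli by shape. In p53KO the classes part at 3 h (mitosis -0.406 to -0.340, replication -0.161 to -0.040), and in WT both lie below 0 h at 3 h and 8 h.

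WT cells followed another order. There both classes fell by 3 h, and at 8 h 20 of 21 mitosis genes were below 0 h, while 9 of 20 replication genes had risen since 3 h (4 without the LPS series). In the WT fit, whose error is the spread between the 3 stimulus series, 0 members were called at 0.5 h and 4 had an unadjusted p under 0.05, against 0.469% of all genes called. At 1 h, 2 replication genes fell, Cdc6 by 0.44 and Cdt1 by 0.25, and 4 mitosis genes, Plk1 by 0.47, Cenpf by 0.37, Aurka by 0.29 and Ccna2 by 0.25, where 6.08% of all genes rose and 6.61% fell. The 2 replication calls became 0 without the IL-1b or TNF series and 1 without the LPS series, and the 4 mitosis calls became 1 without the TNF or LPS series.

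At 3 h in WT, 16 of 20 replication genes fell and 1 rose, with a median of -0.37, and 15 of 21 mitosis genes fell and 0 rose, with a median of -0.31. Over all genes 22.2% rose and 20.7% fell, with a median of 0.00. Mcm2 lay at 144, 149 and 148 CPM at 0 h in the IL-1b, TNF and LPS series and at 99.5, 104 and 83.5 CPM at 3 h, a fall of 0.61 ± 0.0668 (SE, adjusted p = 3.44e-06, edgeR). Mcm6 lay at 208, 209 and 216 CPM and then at 155, 146 and 131 CPM, a fall of 0.54 (adjusted p = 1.82e-05). Cdc6 lay at 32.1, 33.5 and 31.9 CPM and then at 24.2, 19.3 and 20.9 CPM, a fall of 0.59 (adjusted p = 0.000578). In each of these genes every 3 h library lay below every 0 h library. Pola1 fell by 0.60, E2f1 by 0.59, Uhrf1 by 0.56, Mcm4 by 0.47, Rfc4 by 0.45, Mcm7 by 0.43, Mcm5 by 0.38, Rrm1 by 0.36, Mcm3 by 0.35, Cdt1 and Prim1 by 0.33, Ccnd1 by 0.26 and Ccne1 by 0.23. Pcna went from 132, 139 and 133 CPM to 117, 118 and 121 CPM, with every 3 h library below 0 h, a change of -0.18 that missed the threshold (adjusted p = 0.0606). Tyms rose by 0.23 (adjusted p = 0.0182), a call that was lost without the IL-1b series, and Ccne2 (-0.03) and Rrm2 (-0.13) were not called.

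Of the WT mitosis genes, Bub1b lay at 95.6, 91.3 and 94.8 CPM at 0 h and at 60.3, 63.0 and 58.8 CPM at 3 h, a fall of 0.62 (adjusted p = 7.92e-07). Plk1 lay at 131, 139 and 133 CPM and then at 93.2, 89.8 and 87.5 CPM, a fall of 0.57 (adjusted p = 1.30e-06). Neither gene's ranges overlapped. Kif11 fell by 0.48, Cdc20 by 0.44, Ccna2 by 0.43, Mki67 and Aurkb by 0.42 and Ccnb2 by 0.38. Cenpf, at 43.0, 47.4 and 45.7 CPM, moved to 30.3, 44.0 and 37.3 CPM, with the TNF library inside the 0 h range, a fall of 0.29 (adjusted p = 0.0267). Ccnb1, Cdk1, Mad2l1, Aurka, Birc5 and Tpx2 (-0.12 to 0.02) were not called.

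At 8 h in WT, 20 of 21 mitosis genes were lower than at 0 h and 0 higher, with a median of -0.40, and Ttk (-0.27, adjusted p = 0.0569) was the one not called. Over all genes 13.4% fell and 13.2% rose. Ccnb2 lay at 45.9, 40.8 and 46.7 CPM against 69.9, 76.1 and 71.8 CPM at 0 h, a fall of 0.70 (adjusted p = 2.25e-06). Kif11 lay at 65.4, 73.9 and 72.7 CPM against 111, 107 and 114 CPM, a fall of 0.65 (adjusted p = 5.22e-06). Of the replication genes 8 were lower and 0 higher, with a median of -0.17, and 5 were lower without the TNF series. The largest of these were the falls of Pola1 (-0.55), Rfc4 (-0.48) and Rrm1 (-0.45), the large subunit of ribonucleotide reductase. Between 3 h and 8 h, 9 replication genes rose, among them E2f1 (0.46), Cdc6 (0.41), Mcm2 (0.40) and Uhrf1 (0.39), and 1 fell, Tyms (-0.24). Of the mitosis genes 9 fell, among them Birc5 (-0.44), Cdk1 (-0.36), Ccnb1 (-0.33) and Ccnb2 (-0.32), and 1 rose, Bub1b (0.26), where 17.0% of all genes rose and 18.0% fell. Without the LPS series the 9 rises became 4 and the call of Bub1b was lost, and that of Tyms was lost without any one series.

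The response of the replication genes differed between the genotypes. The change from 0 h to 3 h, averaged over the stimuli, was higher in p53KO than in WT for 13 of 20 replication genes and lower for 0, against 6.65% of all genes higher and 3.34% lower. Of 21 mitosis genes, 0 were higher and 3 lower. At 8 h the difference was higher for 10 replication and 4 mitosis genes and lower for 0, against 2.59% of all genes higher and 1.42% lower. All 41 differences were above 0 at 8 h, although that of Ccnb2 was 0.00. They rest on the same libraries and 1 WT line, so they are not 41 separate agreements. The share of all genes above 0 was not set beside this count.

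Cdc6 gave a large difference at 3 h. It fell in WT and lay at 27.7 to 32.8 CPM (median 28.7) at 0 h and 24.5 to 31.9 CPM (median 29.7) at 3 h in p53KO, so that the p53KO minus WT difference in change was 0.60 ± 0.116 (SE, adjusted p = 0.00158, edgeR). Pcna moved down in WT and up in p53KO, a difference of 0.51 ± 0.0826 (SE, adjusted p = 0.000239), from a 0 h level that was lower in p53KO. Mcm6 fell in WT and lay at 165 to 201 CPM at 3 h in p53KO against 176 to 203 CPM at 0 h, a difference of 0.46 ± 0.073 (SE, adjusted p = 0.000169). Ccne2 (0.64) and the other 5 helicase subunits (0.25 to 0.41) also differed, as did Uhrf1 (0.41), Rrm1 (0.38), Pola1 (0.37) and Cdt1 (0.32). Rrm2, Tyms, Prim1, Rfc4, E2f1, Ccne1 and Ccnd1 (-0.04 to 0.19) were not called. E2f1 itself fell in both genotypes, with a difference of 0.16 ± 0.0966 (SE, adjusted p = 0.323). The 3 mitosis genes with a lower change in p53KO were Cenpf (-0.52), Aurka (-0.31) and Tpx2 (-0.24). Of these, Aurka and Tpx2 were not called at 3 h in WT.

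At 8 h the differences of Mcm6 (0.58, adjusted p = 3.81e-05), Cdc6 (0.55), Pcna (0.44), Uhrf1 (0.41), Mcm5 (0.40), Mcm7 (0.40), Rrm1 (0.40), Cdt1 (0.35), Mcm3 (0.31) and Mcm2 (0.29) were called. So were those of the mitosis genes Plk1 (0.42), Cdk1 (0.41), Ccna2 (0.39) and Tpx2 (0.28). Plk1 lay at 94.8, 92.4 and 95.0 CPM at 8 h in WT against 131 to 139 CPM at 0 h, and at 107 to 126 CPM (median 117) in p53KO against 119 to 129 CPM. Tpx2 was thus lower at 3 h and higher at 8 h in p53KO than in WT by this measure. At 0.5 h and 1 h 0 members were called, with 2 and 5 at an unadjusted p under 0.05, against 0.0217% and 0.736% of all genes. With the line as a block, 1 replication and 1 mitosis gene were higher at 1 h, and without the KO-2 IL-1b or LPS 1 h library 1 mitosis gene was.

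These counts depended on the series and on how the 0 h libraries were used. With the 0 h libraries of a line summed into 1, 4 replication and 0 mitosis genes were called at 3 h and 1 and 0 at 8 h. Without the IL-1b, TNF or LPS series, 5, 7 or 4 replication genes were called at 3 h and 3, 5 or 6 at 8 h. In the same order, 0, 1 or 0 mitosis genes were called at 3 h and 1, 0 or 1 at 8 h. The mitosis calls at 3 h became 0 without the KO-2 TNF 3 h library and 1 without any KO-1 0 h library or the KO-2 IL-1b or LPS 3 h library. At 8 h they became 2 without any KO-1 8 h library or the KO-2 LPS 0 h library, and 10 with the line as a block.

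A comparison library by library gave the same order without a test. At 3 h all 6 p53KO series lay above all 3 WT series for 10 of 20 replication genes and 0 of 21 mitosis genes, against 8% of all genes, and below them for 0 and 3, against 5.36%. At 8 h p53KO lay above WT for 9 replication and 6 mitosis genes, against 4.66% of all genes. The replication median minus the mitosis median was 0.233 to 0.342 in the 6 p53KO libraries at 3 h and 0.180 to 0.354 at 8 h. In WT it was -0.151 to 0.010 at 3 h and 0.170 to 0.273 at 8 h. At 3 h every p53KO library thus lay above every WT library in this difference, and at 8 h the ranges overlapped.

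**Figure D4:**
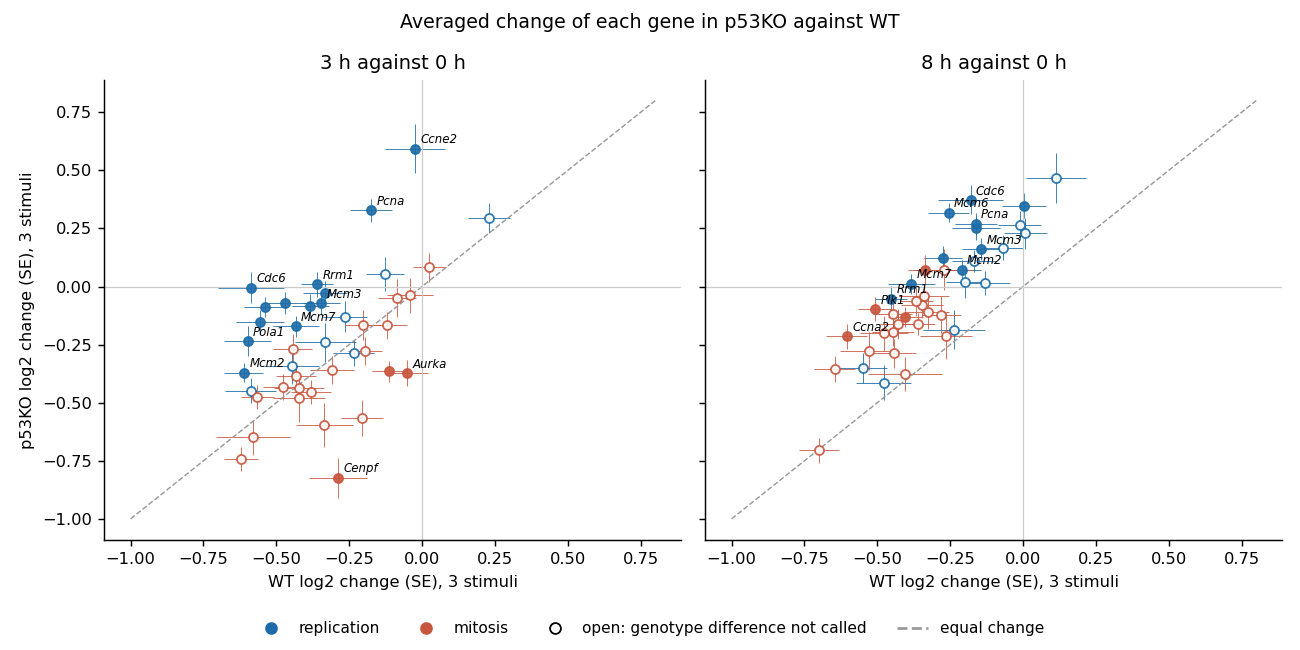
Log2 change averaged over the stimuli in p53KO (y axis) against that in WT (x axis) for each of the 41 genes, with SE bars, at 3 h and at 8 h. Filled points passed the test of the genotype difference and the dashed line marks equal change. At 3 h 13 filled replication genes lie above the line and 3 filled mitosis genes below it.

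Other genes of the same pathways, from lists of further pathway members, were counted in the same fits. Of 53 other replication genes tested, 31 fell and 4 rose at 3 h in p53KO, against 32.2% and 30.4% of all genes. Brca2, which repairs broken forks, fell by 1.21, the fork protector Timeless by 0.60 and Rpa1, which coats single-stranded DNA, by 0.45. Orc1, a subunit of the origin recognition complex, rose by 0.54 and Cdca7 by 0.39. At 8 h 18 rose and 14 fell, with the falls at the share of all genes (25.3% rose and 26.7% fell). In WT 34 fell and 1 rose at 3 h, where 20.7% of all genes fell and 22.2% rose, and 25 fell and 0 rose at 8 h, where 13.4% fell and 13.2% rose. The genotype difference was higher for 8 and lower for 0 of the 53 at 3 h, and 15 and 0 at 8 h, against 6.65% and 2.59% of all genes higher. Orc1 was at 17.3 CPM at 0 h and 17.7 CPM at 3 h in WT, and at 13.4 and 19.5 CPM in p53KO.

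Of 70 other mitosis genes, 52 fell and 1, Cks2 (0.23), rose at 3 h in p53KO, and 43 fell and 2 rose in WT, against 32.2% and 20.7% of all genes that fell. At 8 h 41 fell and 2 rose in p53KO, and 59 fell and 0 rose in WT, against 26.7% and 13.4% that fell. Cdc25b, a Cdk1 phosphatase, fell by 0.91 and Kif2c, a microtubule depolymerase, by 0.79 in p53KO at 3 h. Psrc1, a spindle gene that p53 is known to activate, fell by 2.03 from a mean of 8.35 CPM in p53KO, while WT held 57.7 CPM at 0 h. The genotype difference was higher for 1 and lower for 6 at 3 h, and higher for 12 and lower for 1 at 8 h, against 6.65% and 3.34% of all genes at 3 h and 2.59% and 1.42% at 8 h.

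Of 20 regulators from the E2F, retinoblastoma and DREAM families, 6 rose and 8 fell at 3 h in p53KO, near the shares of all genes (30.4% and 32.2%). E2f8, a repressive E2F, rose by 1.14 (adjusted p = 1.56e-13), from a mean of 28.8 to 63.5 CPM, and by 0.57 in WT, from 37.5 to 56.5 CPM, a genotype difference of 0.57 (adjusted p = 0.00218). E2f4, the E2F of DREAM, rose by 0.51 and its pocket protein gene Rbl2 fell by 1.04 in p53KO and by 0.99 in WT. Lin54, the DREAM subunit that reads the CHR, rose by 0.37 in p53KO and changed by -0.02 in WT. Foxm1, the activator of mitosis genes, fell by 0.28 in p53KO and by 0.70 in WT, a difference of 0.43 (adjusted p = 0.00225). The genotype difference was higher for 7 of the 20 at 3 h and 4 at 8 h, and lower for 0, against 6.65% and 2.59% of all genes higher.

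Of 13 G1 genes, 7 rose and 2 fell at 3 h in p53KO, where 30.4% of all genes rose and 32.2% fell. Myc rose by 0.87, the G1 kinase Cdk6 by 1.58 and the phosphatase Cdc25a by 0.64, while Fzr1, the G1 activator of the anaphase-promoting complex, fell by 0.31 and Ccnd3 by 0.26. The rise of Myc was larger in p53KO than in WT by 0.60 (adjusted p = 3.91e-05). Of 6 CDK inhibitors tested, 1 rose and 3 fell, against the same shares. Cdkn1a rose by 1.40 in p53KO, from a mean of 22.8 to 62.5 CPM, and by 0.45 in WT, from 348 to 476 CPM, with both p53KO means below both WT means. Cdkn1b fell by 0.51 and Cdkn2c by 0.61.

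The responses were also counted by promoter letters. The 8 replication genes with an E2F site, Mcm3, Mcm5, Mcm6, Mcm7, Cdc6, Cdt1, Pola1 and Uhrf1, all fell at 3 h in WT, with a median of -0.49. In p53KO 3 of them fell at 3 h, with a median of -0.09, and 6 rose and 1 fell at 8 h, with a median of 0.21. All 8 passed the test of the genotype difference at 3 h. Of the 9 replication genes without one, 6 fell at 3 h in WT (median -0.33), 5 fell and 2 rose in p53KO (median -0.24), and 3 passed the test of the genotype difference. The 13 mitosis genes with a CHR fell in 12 cases at 3 h in p53KO (median -0.43) and in 11 in WT (median -0.34), and 0 differed upward between genotypes. Of the 4 without one, 2 fell in p53KO and 1 in WT. These are descriptions of small groups, and no test was made between them.

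**Figure D5:**
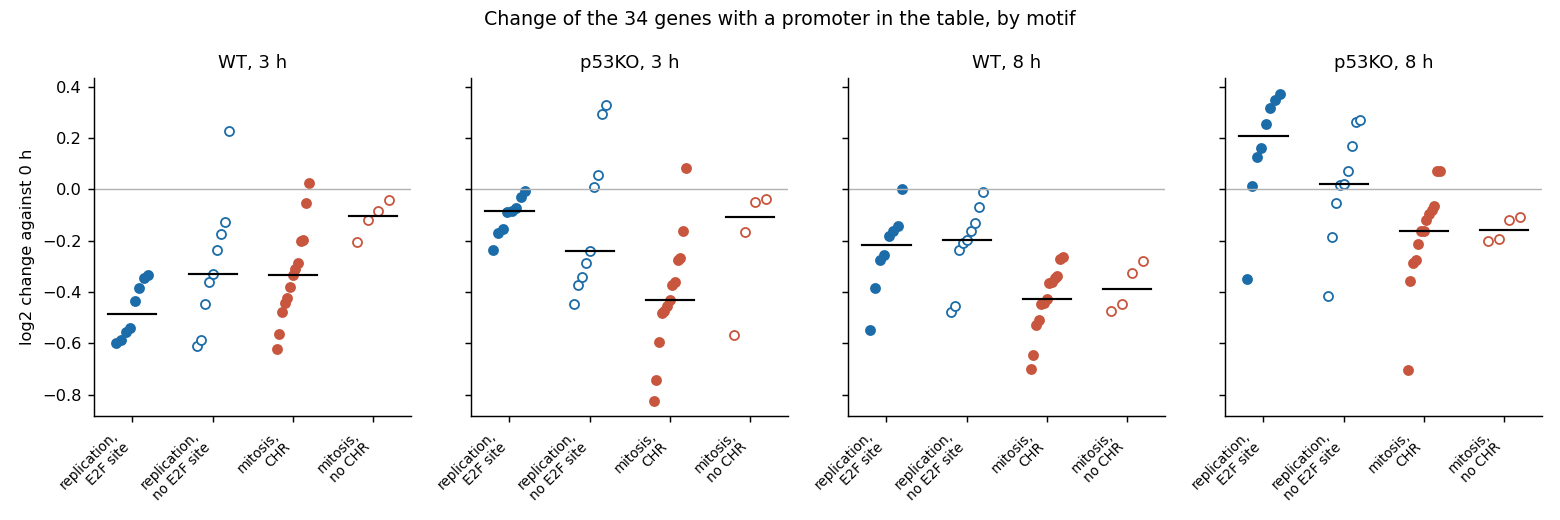
Log2 change against 0 h (y axis) of the 34 genes with a promoter in the RefSeq table, grouped by class and motif (x axis), in WT and p53KO at 3 h and 8 h, with 1 point for each gene. The 8 replication genes with an E2F site have a median of -0.49 in WT and -0.09 in p53KO at 3 h.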

How the data were processed

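The authors deposited raw read counts per Ensembl gene for 45 libraries of poly(A) RNA, made with a stranded kit and paired-end reads per the labels' protocols. Alignment and counting tools named in the submitters' processing notes are STAR and featureCounts, beside DESeq and build mm9, while versions, strand setting and annotation release are not given in the sources used here. The 5 categories that name no gene held 24.65% of the counts and were left out. The 41 members and all lists were chosen with earlier results of these data known.

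Counts were analysed in R 4.3.3 with edgeR 4.0.16 (quasi-likelihood test, TMM factors 0.889 to 1.072). The 13851 genes that reached 1 CPM in 2 or more libraries were fitted jointly, 1 mean per group over 30 groups (15 residual and 9.75 prior degrees of freedom). WT groups held 1 library and were assumed to vary like p53KO groups. WT time effects came from 15 libraries with stimulus and time as terms (8 residual degrees of freedom). Genotype levels were compared on counts summed per line (12918 genes). P-values were adjusted by Benjamini-Hochberg over all genes within a contrast, with calls under 0.05. Class medians used log2 CPM with a prior count of 2. The scripts were tested on simulated data.

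The labels do not say that KO-1 and KO-2 came from separate embryos, so p-values measure the spread between these cultures. Deviations of KO-1 and KO-2 from group means correlated between groups with a median of 0.191 (-0.169 to 0.504, 105 pairs of groups, 73 over 0.1, 9632 genes), and since the numbers mark lines, a fit with the line as block was run too. Full values were given, per class, for the 4 members with the smallest adjusted p at 3 h, the 3 at 8 h, the 3 for genotype level, and members called against their class. From each other list up to 3 genes with the smallest adjusted p and up to 2 called the other way were named, and Foxm1 was added after its values were seen. Alternatives were DESeq2 1.42.0, other filters, pooled or summed 0 h libraries, and left-out libraries and series.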

Additional observations from a re-analysis of the deposited data

Results flagged for a closer look

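The change at 3 h differed between the genotypes (p53KO minus WT, log2) for Mcm2 (0.25), Mcm3 (0.28), Mcm4 (0.41), Mcm5 (0.31), Mcm6 (0.46), Mcm7 (0.28), Pcna (0.51), Cdc6 (0.60), Cdt1 (0.32), Ccne2 (0.64), Rrm1 (0.38), Pola1 (0.37) and Uhrf1 (0.41). It differed in the other direction for Aurka (-0.31), Cenpf (-0.52) and Tpx2 (-0.24). At 8 h it differed for Mcm2 (0.29), Mcm3 (0.31), Mcm5 (0.40), Mcm6 (0.58), Mcm7 (0.40), Pcna (0.44), Cdc6 (0.55), Cdt1 (0.35), Rrm1 (0.40), Uhrf1 (0.41), Ccna2 (0.39), Cdk1 (0.41), Plk1 (0.42) and Tpx2 (0.28). Tpx2, the activator of Aurka, is on the list at both times with opposite signs. The 3 mitosis calls at 3 h and 4 at 8 h became 0 at both times with the 0 h libraries of a line summed. They became 0 at 3 h without the IL-1b or the LPS series, and 0 at 8 h without the TNF series. Most replication calls were also lost at both times with the 0 h libraries of a line summed. Replication calls became fewer at both times when any series was left out. Mcm6 differed at 8 h in p53KO between LPS and IL-1b (0.58) and between LPS and TNF (0.57).

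Of 55 groups of 6 p53KO libraries, 2 held a library far from the others, where chance gives about 5%. The mitosis class median at 3 h was -0.34 in the KO-1 TNF library, and the Kif11 change at 3 h was -0.32 in the KO-2 TNF series, in both cases the smallest fall of the 6.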

How the results depend on the processing

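Limits first. WT has 1 library a group, the genotype test over lines has 1 residual degree of freedom, and the counts per stimulus rest on 2 libraries a group, so most single-stimulus counts moved. Signs were checked only for the members with full values, in level and in changes averaged over the stimuli at 3 h and 8 h. No called log2 change among these turned sign. The averaged 1 h mitosis counts turned from 0 higher and 2 lower to 1 and 0 without the IL-1b series and to 2 and 1 with no filter. The falls of mitosis genes at 3 h in p53KO (16 to 18 called) and the 3 rises of replication genes held under every alternative, and averaged 8 h counts ranged over 7 to 12 replication rises and 5 to 13 mitosis falls. Counts below are of replication (R) or mitosis (M) members called, and the cause of each move was not tested. The left-out TNF and LPS series and the summed 0 h libraries were added after the data were seen.

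In the level test, 0 h libraries alone gave R higher 1 and lower 5 and M higher 1 and lower 3, and libraries as samples gave R higher 9 and M lower 5. The 30-group fit gave R higher 0 in WT at 3 h. The filter of 1 CPM in 15 libraries gave R lower 2 with IL-1b at 8 h. p53KO libraries alone gave R higher 5 with LPS at 8 h and 1 R between LPS and IL-1b. With 0 h libraries of a line summed, averaged 1 h calls were R lower 0 and M lower 1, genotype calls R higher 4 and M lower 0 at 3 h and R higher 1 and M higher 0 at 8 h, IL-1b calls M lower 1 at 0.5 h and 1 h and R lower 2 at 8 h, and R higher 5 with LPS at 8 h, with stimulus differences of 1 M (LPS, IL-1b), 6 R and 1 M (LPS, TNF) and 1 R and 3 M (IL-1b, TNF). With 0 h libraries pooled, IL-1b gave R higher 1 and M lower 2 at 0.5 h, R lower 2 and M lower 2 at 1 h and R higher 11 and lower 2 at 8 h, TNF R higher 1 at 1 h and R lower 2 and M lower 6 at 8 h, LPS M higher 1 at 1 h, R lower 8 at 3 h and R higher 7 at 8 h, and stimulus differences were 6 R and 4 M, 6 R and 2 M, and 2 R and 5 M. DESeq2 size factors gave R lower 0 (IL-1b) and R higher 5 (LPS) at 8 h, M lower 2 in level and 1 R between LPS and IL-1b. The DESeq2 test gave R lower 0 and M lower 1 at 1 h, R lower 0 with IL-1b at 1 h, R lower 2 (IL-1b) and 1 (TNF) at 3 h and 0 at 8 h, M lower 1, 1 and 6 with IL-1b, TNF and LPS at 8 h, M lower 1 in the genotype difference at 3 h and 1 R between LPS and IL-1b. Removing length and GC trends gave M lower 2 for 8 h against 3 h, M lower 1 with IL-1b and TNF at 1 h, R lower 2 with each and M lower 5 with TNF at 8 h, R higher 5 with LPS at 8 h, R higher 1 in the genotype difference at 1 h and 1 R between LPS and IL-1b. No filter gave R higher 2, M higher 2 and M lower 1 at 1 h, M lower 2 for 8 h against 3 h, M lower 2 and 1 with IL-1b at 0.5 h and 1 h, R lower 2 (IL-1b) and M lower 4 (TNF) at 8 h, R lower 1 in WT at 1 h, 2 M between LPS and IL-1b and 1 R between IL-1b and TNF.

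The fit with the replicate block (line) gave R higher 3 and M higher 1 at 1 h, M lower 2 for 8 h against 3 h, M lower 1 with IL-1b at 0.5 h, R higher 1 with TNF at 1 h, R lower 9 with LPS at 3 h, R lower 2 with IL-1b and TNF and M lower 4 with TNF at 8 h, R higher 1 and M higher 1 in the genotype difference at 1 h and M higher 10 at 8 h, and stimulus differences of 5 R and 2 M (LPS, IL-1b) and 1 R (IL-1b, TNF). Among the members with full values it added calls of Ccnd1 and Mcm6 at 3 h and Plk1 at 8 h. It also added Ccnd1 and Kif11 in the genotype difference at 8 h. The pairing changed no other count by over 1.5 times.

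Without the IL-1b series, averaged calls were R lower 0, M higher 1 and M lower 0 at 1 h, R higher 7 at 8 h and M lower 2 for 8 h against 3 h, genotype calls R higher 5 and M lower 0 at 3 h and R higher 3 and M higher 1 at 8 h, and WT calls R lower 0 at 1 h, R higher 0 at 3 h and R lower 0 for 8 h against 3 h. Without LPS they were M lower 5 at 8 h, R higher 4 and M lower 0 and R higher 6 and M higher 1 between genotypes, and in WT R lower 1 and M lower 1 at 1 h and R higher 4, R lower 0 and M higher 0 for 8 h against 3 h. Without TNF they were M lower 1 at 1 h, R higher 7 and M lower 1 and R higher 5 and M higher 0 between genotypes, and in WT R lower 0 and M lower 1 at 1 h, R lower 5 at 8 h and R lower 0 for 8 h against 3 h.

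Leaving out each p53KO library gave ranges, averaged over stimuli, of 0 to 1 (M higher), 0 to 2 (M lower) and 0 to 2 (R lower) at 1 h and 1 to 2 (M lower) and 0 to 1 (R lower) for 8 h against 3 h, and, in the genotype difference, of 0 to 1 (M higher) at 1 h, 0 to 4 (M lower) at 3 h and 2 to 6 (M higher) at 8 h. M lower at 8 h ran over 1 to 3, 1 to 3 and 2 to 12 with IL-1b, TNF and LPS, R higher over 3 to 7, 1 to 5 and 1 to 5, and R lower over 0 to 0, 0 to 2 and 0 to 3. At 3 h R higher ran over 1 to 3, 0 to 2 and 1 to 3, and R lower over 1 to 4 with IL-1b and with TNF. At 1 h R higher ran over 0 to 0 with IL-1b and LPS and 0 to 1 with TNF, and R lower over 0 to 1 with IL-1b. Members differing between LPS and IL-1b ran over 1 to 3 R.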

Other observations

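Some members kept apart from their class under both genotypes. Tyms was the one replication gene that rose at 3 h in WT and also rose in p53KO, and Cdk1, Mad2l1 and Birc5 were the mitosis genes that were not called at 3 h in either genotype, although all 3 were lower at 8 h in WT (-0.34, -0.28 and -0.48). Ccnb2 was lower at 8 h than at 3 h in p53KO (-0.25) and in WT (-0.32). Ccnb1, the other cyclin B gene of the set, changed between those times by -0.03 in p53KO and -0.33 in WT. Rrm1 and Rrm2, whose products form 1 enzyme, were both lower in p53KO than in WT at 0 h (-0.26 and -0.44). Rrm1 lay at 297 to 327 CPM in the 6 p53KO libraries and at 367 to 385 CPM in the 3 WT libraries.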
